A study of Homo sapiens with 5 samples.

Results

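A set of 10 genes that mark where a cell stands between the epithelial and the mesenchymal state was followed in human mammary epithelial cells in which the transcription factor gene JUN was switched on. They were 3 classical cadherins (CDH1, CDH2 and CDH3), 2 mesenchymal structural genes (VIM and FN1), 4 transcription factors (ZEB1, ZEB2, SNAI2 and TWIST1) and the splicing regulator ESRP1. The 10 rows were found by matching the Entrez identifiers of the count table to NCBI gene symbols, among 23459 genes in all. The cells were MCF10A, an immortalised human breast epithelial line, in a derivative called SAM. SAM cells carry dCas9-VP64, a Cas9 without cutting activity joined to an activation domain, and the further activator MCP-p65-HSF1, and they were grown from picked single clones. The 3 libraries labelled NTC (replicates 1 to 3) came from SAM cells infected with a non-targeting guide and the 2 labelled sgJUN#1 (replicates 1 and 2) from SAM cells infected with a guide to the JUN promoter, so both groups carried the activators. All cells were kept in DMEM/F12 medium with horse serum, insulin, hydrocortisone, cholera toxin and EGF. The time between infection and harvest is not given in the sources used here.

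Epithelial cells adhere to each other through E-cadherin (CDH1) and P-cadherin (CDH3), whereas mesenchymal cells use N-cadherin (CDH2), build filaments of vimentin (VIM) and secrete fibronectin (FN1). In an epithelial-mesenchymal transition, repressors of the ZEB, SNAIL and TWIST families act on epithelial genes such as CDH1, and ZEB1 is a known repressor of ESRP1, whose protein keeps the epithelial splice forms of many transcripts. MCF10A is a basal-type line known to express markers of both states.

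The JUN guide was checked first. JUN reached 25.0, 36.1 and 9.27 CPM (read counts relative to library size, scaled by TMM) in NTC replicates 1 to 3 and 171 and 264 CPM in sgJUN#1 replicates 1 and 2. Both sgJUN#1 libraries lay above every NTC library, and the log2 fold change was 3.25 (SE 0.484). The edgeR adjusted p was 0.0733, outside the threshold of 0.05. JUN passed with DESeq2 (adjusted p 7.36e-12), and with edgeR when fitted without NTC replicate 2 (edgeR adjusted p 0.0144) without NTC replicate 3 (0.00121) and with the replicate number as a block (1.15e-04), and its highest adjusted p over 13 alternatives was 0.322. Libraries held between 2455627 and 4988062 counts, and a count of 0 allows a level of up to 3 counts, which equalled 0.617 to 1.22 CPM. Among the basal mammary markers KRT5 ranged from 151 to 452 CPM, while KRT14 stayed between 0.823 and 3.24 CPM. The luminal marker KRT8 was present at 13.8 to 27.4 CPM, and KRT19 had no count in any library. Of the fibroblast markers, PDGFRA ranged from 148 to 207 CPM, whereas COL1A1 was at most 2.26 CPM and THY1 had no count in any library. Summed over the 8 fibroblast markers the level was 190 to 299 CPM in the NTC libraries, against 179 and 217 CPM in sgJUN#1, and over the 7 basal markers 499.6 to 942 CPM and 1142 and 512 CPM. With all libraries no marker passed the edgeR threshold, of 7 basal, 6 luminal, 2 fibroblast, 1 endothelial and 1 leukocyte markers with enough counts to test. The unadjusted edgeR p was under 0.05 for 2 of them (the basal ITGB4 and the luminal GATA3), against 8.38% of all tested genes. The marker ITGB4, an integrin of basal cells, was uneven among the NTC libraries, at 118, 47.4 and 291 CPM, against 26.3 and 26 CPM in sgJUN#1. It passed the edgeR threshold, as lower in sgJUN#1, when NTC replicate 2 was left out.

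All 10 genes had enough counts for the test, and none of the 10 passed the edgeR quasi-likelihood threshold, an adjusted p under 0.05 over 13616 tested genes. Over all tested genes 28 passed, or 0.206% (0.0808% higher and 0.125% lower). Before adjustment, p was under 0.05 for 4 of the 10 genes (40%), namely CDH2, ESRP1, CDH3 and SNAI2, against 8.38% of all tested genes (4.02% higher). In these same 4 genes the NTC and sgJUN#1 libraries did not overlap, 3 of them higher and 1 lower in sgJUN#1, whereas 25.0% of all tested genes had no overlap (12.2% higher and 12.8% lower). With DESeq2, which called 136 genes (0.975%, with 0.473% higher), and with limma-voom the number of these genes called was again 0. These are bulk libraries, so a different share of cells in either state and a different level per cell cannot be told apart. The 4 genes did not all move to the same side of the epithelial-mesenchymal axis. ESRP1 and CDH3, which mark the epithelial state, were higher in sgJUN#1, and the mesenchymal cadherin gene CDH2 was lower. SNAI2, which marks the mesenchymal state, was higher. The median log2 fold change of the 10 was 0.18, beside -0.0082 over all tested genes, with 8 positive and 2 negative. Without sgJUN#1 replicate 2 this median was -0.25, and without sgJUN#1 replicate 1 it was 0.40.

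**Figure D1:**
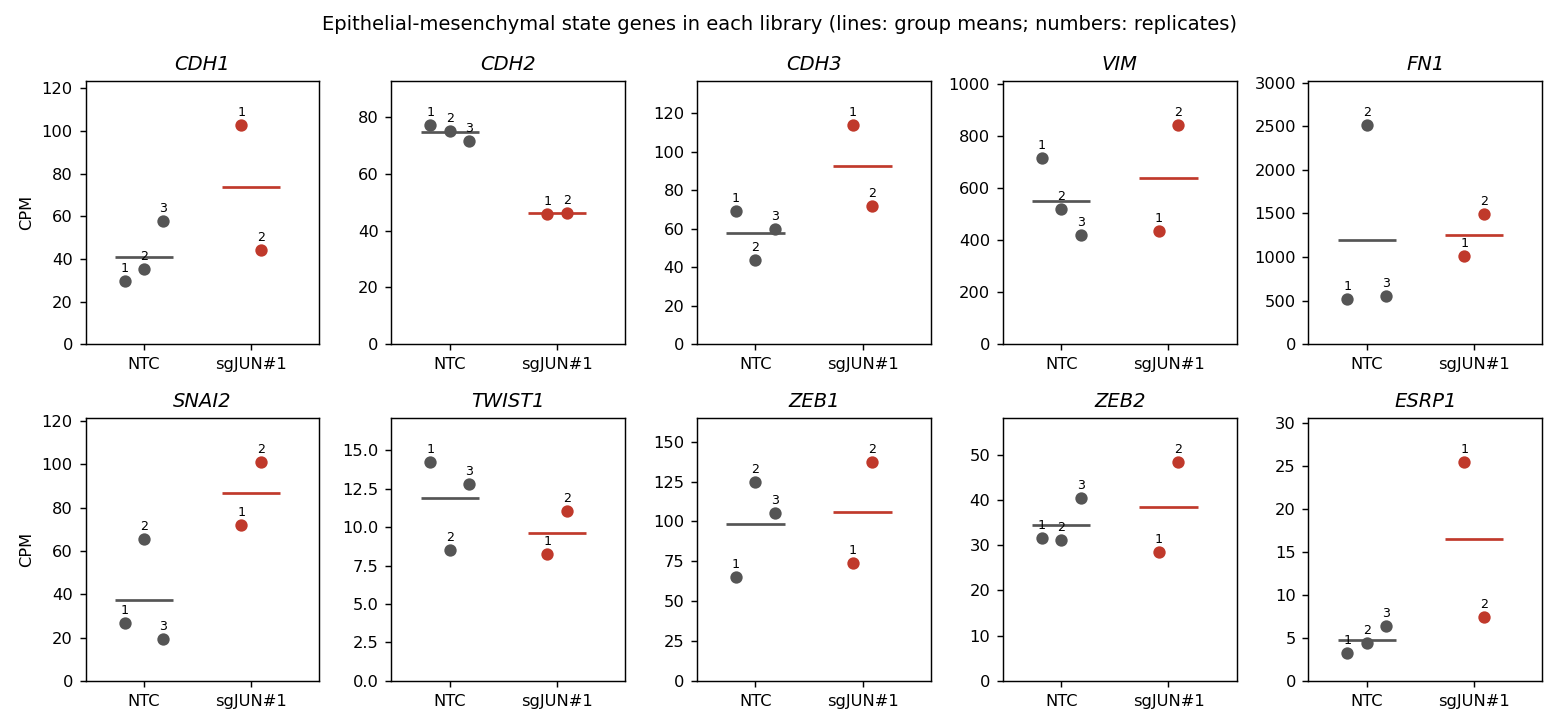
Level of each of the 10 genes in every library, in CPM on a linear axis that starts at 0 in each panel, with NTC (grey) and sgJUN#1 (red) libraries as points numbered by replicate and a line at each group mean. CDH2 is the gene whose 2 sgJUN#1 points lie together (46.1 and 46.3 CPM) below 3 close NTC points, whereas FN1 in NTC spans 521 to 2515 CPM.

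CDH2 encodes N-cadherin, the cadherin of neural and mesenchymal cells (Entrez 1000, GRCh37 chromosome 18, 25512843 to 25757910, minus strand). Its level was 77.3, 75.0 and 71.7 CPM in the NTC libraries and 46.1 and 46.3 CPM in the sgJUN#1 libraries. The values were tight in both groups, and both sgJUN#1 libraries lay below all NTC libraries. The means were 74.7 ± 2.81 CPM (SD, n = 3) and 46.2 ± 0.180 CPM (SD, n = 2), for a log2 fold change of -0.69 (SE 0.193, 95% interval -1.13 to -0.26). The edgeR unadjusted p was 0.00536 and the adjusted p 0.302, so the difference did not pass the threshold. The exact two-sided permutation test over libraries gave p = 0.1, the smallest value that 3 against 2 libraries allow. This was the steadiest of the 10 genes across settings, since its log2 fold change stayed between -0.72 and -0.67 in 13 alternative fits that changed the tool, the scaling, the filter or the set of libraries. Its promoter stretch is shown because its log2 fold change moved least when libraries were left out. The table of RefSeq promoters (GRCh38.p14) held 5 of the 10 genes, CDH2, VIM, FN1, ZEB1 and ZEB2. The 250 bases before the most upstream listed start of CDH2, at chr18:28177131-28177380 on the minus strand, read 5′ to 3′ as follows. 
CDH2 promoter: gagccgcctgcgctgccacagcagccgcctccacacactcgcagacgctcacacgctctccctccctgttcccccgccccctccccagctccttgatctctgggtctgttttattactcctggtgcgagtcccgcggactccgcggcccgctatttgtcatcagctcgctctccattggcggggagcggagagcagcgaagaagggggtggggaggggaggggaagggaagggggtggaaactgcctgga
The run has no capitals because neither strand holds any of 3 motifs searched: the E-box CAGGTG bound by ZEB, SNAIL and TWIST factors, the AP-1 site TGANTCA bound by JUN with FOS, and the CRE TGACGTCA bound by JUN with ATF partners. It is 1 of 2 stretches listed for CDH2, and the other is not described here. Among 35116 promoter stretches of the same length, 17.49% held the E-box, 6.57% the AP-1 site and 1.65% the CRE.

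CDH3 and CDH1 encode P-cadherin of basal cells and E-cadherin of adherens junctions. They are neighbours on chromosome 16 of GRCh37, with CDH3 (Entrez 1001) at 68670092 to 68761371 and CDH1 (Entrez 999) at 68771195 to 68869440, both on the plus strand and 9823 bases apart. CDH3 was at 69.4, 43.8 and 59.8 CPM in the NTC libraries, against 114 and 71.6 CPM in sgJUN#1. Both sgJUN#1 libraries lay above the NTC libraries, the second one narrowly. The means were 57.7 ± 12.9 (SD, n = 3) and 92.8 ± 29.9 CPM (SD, n = 2), and the log2 fold change was 0.69 (SE 0.265, 95% interval 0.09 to 1.28, edgeR adjusted p 0.521). CDH1 was at 29.6, 35.3 and 57.6 CPM in the NTC libraries, against 103 and 44.2 CPM in sgJUN#1. The high value belonged to sgJUN#1 replicate 1, while replicate 2 lay inside the NTC range. The means were 40.8 ± 14.8 (SD, n = 3) and 73.5 ± 41.5 CPM (SD, n = 2), and the log2 fold change equalled 0.85 (SE 0.383, 95% interval -0.019 to 1.72, edgeR adjusted p 0.607). Without sgJUN#1 replicate 1 the log2 fold change was 0.11 for CDH1 and 0.31 for CDH3, so that library carried much of both differences.

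The balance between cadherins was also taken within each library, where it does not depend on how libraries were scaled. The log2 ratio of CDH2 to CDH1 counts was 1.38, 1.08 and 0.32 in NTC, so N-cadherin reads outnumbered E-cadherin reads, and -1.16 and 0.068 in sgJUN#1. The groups did not overlap, but the sgJUN#1 libraries lay far apart. The mean ratio was 0.93 ± 0.55 (SD, n = 3) in NTC and -0.54 ± 0.87 (SD, n = 2) in sgJUN#1, a difference of -1.47 on the log2 scale (exact two-sided permutation p = 0.2, adjusted over the 5 ratios computed 0.5). The ratio of CDH1 to CDH3 differed by 0.11 between the group means (exact permutation p = 0.9), with groups that overlapped. In a list of cadherins and catenins that includes these genes, 13 of 16 were tested and 0 passed with edgeR or DESeq2. The unadjusted edgeR p was under 0.05 for 3 of the 13, against 8.38% of all tested genes. The median log2 fold change was 0.074. The lowest value in that list was CDH4 (R-cadherin), with 87.2, 126 and 111 CPM in the NTC libraries, against 60.5 and 57.7 CPM in sgJUN#1. As in CDH2, both sgJUN#1 libraries lay below the NTC libraries, and the log2 fold change equalled -0.87 (SE 0.221) and an edgeR adjusted p of 0.260.

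VIM encodes vimentin, the intermediate filament of mesenchymal cells (Entrez 7431, GRCh37 chromosome 10, 17270240 to 17279592, plus strand). It was at 716, 520.3 and 421 CPM in the NTC libraries, against 436 and 844 CPM in sgJUN#1. The lower sgJUN#1 value came from replicate 1 and the higher from replicate 2, which was 1.93 times the other and above every NTC library. The means were 552 ± 150.2 (SD, n = 3) and 639.9 ± 288 CPM (SD, n = 2), and the log2 fold change of 0.21 (SE 0.310, 95% interval -0.49 to 0.91) did not pass the edgeR test (adjusted p 0.903). The VIM log2 fold change was -0.34 without sgJUN#1 replicate 2 and 0.61 without sgJUN#1 replicate 1. The log2 ratio of CDH1 to VIM counts ranged from -4.59 to -2.87 in NTC and was -2.08 and -4.25 in sgJUN#1. Vimentin reads exceeded E-cadherin reads in every library, and the ratios of the groups overlapped (exact permutation p = 0.6).

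FN1 encodes fibronectin, an extracellular matrix glycoprotein (Entrez 2335, GRCh37 chromosome 2, 216225163 to 216300796, minus strand). It was at 521, 2515 and 548 CPM in the NTC libraries, against 1016 and 1489 CPM in sgJUN#1. NTC replicate 2 stood 4.83 times above the lowest NTC library, and the sgJUN#1 libraries fell between it and the other NTC libraries. The means were 1195 ± 1144 (SD, n = 3) and 1252 ± 334 CPM (SD, n = 2), for a log2 fold change of 0.069 (SE 0.734, 95% interval -1.73 to 1.86, edgeR adjusted p 0.988). This interval is the widest of the 10 and allows a fall or a rise of more than 3-fold. The value for FN1 rested on NTC replicate 2, since without it the log2 fold change was 1.23 (adjusted p 0.122), and it was -0.29, -0.28 and -0.23 without NTC replicate 1, NTC replicate 3 and sgJUN#1 replicate 2. FN1 is shown because its stretch before the start holds a CRE, in capitals, beginning 183 bases before the start, at chr2:215436069-215436318 of GRCh38.p14 on the minus strand.
FN1 promoter: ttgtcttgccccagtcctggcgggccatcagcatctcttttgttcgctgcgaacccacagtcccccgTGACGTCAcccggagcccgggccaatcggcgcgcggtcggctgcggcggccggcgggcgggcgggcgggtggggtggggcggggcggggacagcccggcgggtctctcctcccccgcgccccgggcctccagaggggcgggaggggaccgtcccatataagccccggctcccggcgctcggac
The E-box CAGGTG and the AP-1 letters are not in this window, and the CRE letters were present in 1.65% of all stretches.

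SNAI2 encodes the repressor SLUG, which is also a factor of basal mammary cells (Entrez 6591, GRCh37 chromosome 8, 49830157 to 49834299, minus strand). It was at 26.9, 65.3 and 19.4 CPM in the NTC libraries, against 71.8 and 101 CPM in sgJUN#1. Both sgJUN#1 libraries were above the NTC libraries, although NTC replicate 2 came close to the lower of them. The means were 37.2 ± 24.6 (SD, n = 3) and 86.5 ± 20.8 CPM (SD, n = 2), and the log2 fold change was 1.24 (SE 0.466, 95% interval 0.16 to 2.32, edgeR unadjusted p 0.0294, adjusted p 0.522). Without NTC replicate 2, the same library that was high for FN1, the log2 fold change was 1.90 and the edgeR adjusted p 0.0425, which passed the threshold, whereas over all 13 alternatives the adjusted p reached 0.9996. The 3 genes most like SNAI2 over the 5 libraries, by the root mean square difference of mean-centred log2 CPM, were HS3ST3A1 (0.107), TSPAN5 (0.116) and STC1 (0.174). HS3ST3A1, a heparan sulfate sulfotransferase, was at 27.7, 80.7 and 23.6 CPM in the NTC libraries, against 80.2 and 106 CPM in sgJUN#1, with the same high NTC replicate 2.

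TWIST1 encodes a basic helix-loop-helix factor of mesenchymal cells (Entrez 7291, GRCh37 chromosome 7, 19060614 to 19157259, minus strand) and was the lowest of the 4 factors in count. It was at 14.3, 8.52 and 12.8 CPM in the NTC libraries, against 8.23 and 11 CPM in sgJUN#1, from 21 to 58 counts per library. The groups overlapped, and the log2 fold change was -0.34 (SE 0.331, 95% interval -1.08 to 0.41, edgeR adjusted p 0.829). In the wider list of factors known to drive the transition, 10 of 15 were tested and 0 passed with edgeR or DESeq2. The unadjusted edgeR p was under 0.05 for 2 of the 10, against 8.38% of all tested genes. Their median log2 fold change was 0.099, and it was 0.40 without sgJUN#1 replicate 1 and -0.095 without sgJUN#1 replicate 2. The last of these fits was filtered anew and held 11 of the factors. Too few counts were present to test SNAI1, SNAI3, PRRX1, FOXC2 and GSC. The next highest value after SNAI2 in that list was TCF4, an E-protein, at 20.3, 30.0 and 24.9 CPM in the NTC libraries, against 37 and 38.5 CPM in sgJUN#1. These groups did not overlap, and the log2 fold change equalled 0.60 (SE 0.239, edgeR adjusted p 0.536). The lowest value after TWIST1 was -0.33 for KLF8.

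ZEB1 and ZEB2 encode zinc finger homeobox repressors that bind E-boxes. ZEB1 (Entrez 6935, GRCh37 chromosome 10, 31607424 to 31818742, plus strand) was at 65.0, 125 and 105 CPM in the NTC libraries, against 73.8 and 138 CPM in sgJUN#1. The sgJUN#1 libraries differed 1.86-fold from each other and spanned most of the NTC range, and the log2 fold change equalled 0.10 (SE 0.331, 95% interval -0.64 to 0.85, edgeR adjusted p 0.963). ZEB2 (Entrez 9839, GRCh37 chromosome 2, 145121931 to 145278624, minus strand) was at 31.5, 31.2 and 40.4 CPM in the NTC libraries, against 28.6 and 48.5 CPM in sgJUN#1. In ZEB2 replicate 1 lay below and replicate 2 above all NTC libraries, and the log2 fold change was 0.14 (SE 0.274, 95% interval -0.47 to 0.76, edgeR adjusted p 0.929). Without sgJUN#1 replicate 2 the log2 fold change was -0.40 for ZEB1 and -0.26 for ZEB2, and without replicate 1 it was 0.49 for each. The overlapping antisense gene ZEB1-AS1 had between 2 and 9 counts per library, against 237 to 476 for ZEB1. The handling of strand in the counting is not stated, so reads of the overlap cannot be told apart. The 250 bases before the most upstream start of ZEB1, at chr10:31318167-31318416 of GRCh38.p14 on the plus strand, are shown because they hold the E-box that ZEB and SNAIL proteins bind, in capitals, beginning 57 bases before the start.
ZEB1 promoter: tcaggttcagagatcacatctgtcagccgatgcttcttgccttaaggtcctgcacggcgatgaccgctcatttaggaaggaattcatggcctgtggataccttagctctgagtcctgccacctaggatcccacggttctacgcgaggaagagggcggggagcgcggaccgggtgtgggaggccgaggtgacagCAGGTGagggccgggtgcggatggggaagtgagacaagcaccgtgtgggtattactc
The E-box letters were present in 17.49% of all stretches of this length, and the AP-1 and CRE letters are not in this ZEB1 window. It is 1 of 7 windows listed for ZEB1, and the others are not described here.

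**Figure D2:**
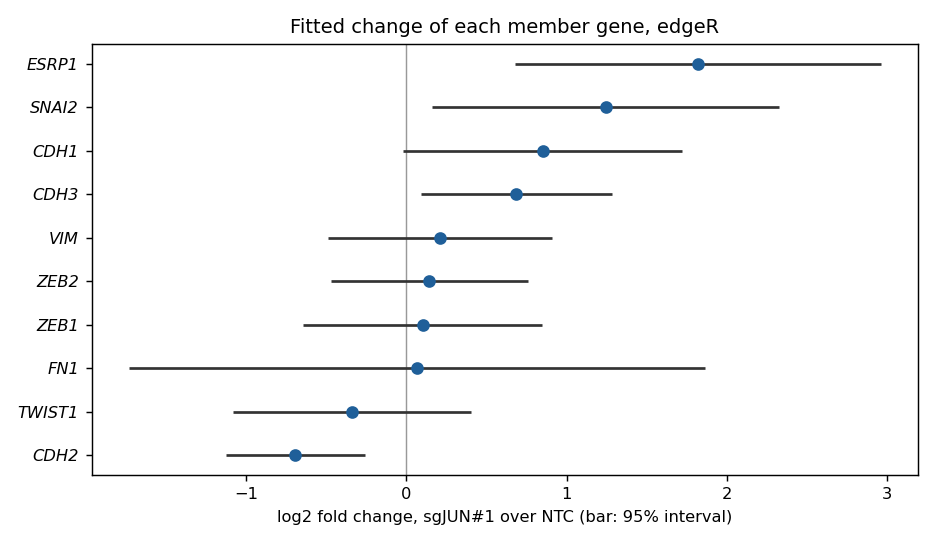
Log2 fold change of sgJUN#1 over NTC for each of the 10 genes (points), with the 95% interval of the edgeR fit as a line and 0 marked. The intervals of CDH2, CDH3, SNAI2 and ESRP1 leave out 0 and those of the other 6 genes include it, before any adjustment for the number of genes tested.

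ESRP1 encodes an RNA-binding protein that promotes epithelial splicing of transcripts such as CD44 and FGFR2 (Entrez 54845, GRCh37 chromosome 8, 95653302 to 95719694, plus strand). It was at 3.29, 4.46 and 6.40 CPM in NTC, from 12, 11 and 29 counts, and at 25.5 and 7.48 CPM in sgJUN#1, from 124 and 21 counts. Both sgJUN#1 libraries lay above the NTC libraries, replicate 2 by little and replicate 1 by much, a gap of 3.41-fold between the replicates. The means were 4.72 ± 1.57 (SD, n = 3) and 16.5 ± 12.7 CPM (SD, n = 2). Of the 10 genes it had the highest log2 fold change, 1.82 (SE 0.506, 95% interval 0.68 to 2.96), with an edgeR unadjusted p of 0.00555 and an adjusted p of 0.302. Without sgJUN#1 replicate 2 the log2 fold change was 2.41 with an edgeR adjusted p of 0.0428, and without replicate 1 it was 0.64 with an adjusted p of 0.9996, so the size depended on which sgJUN#1 library was kept. The log2 ratio of ZEB1 to ESRP1 counts was 4.25, 4.74 and 4.01 in NTC and 1.53 and 4.17 in sgJUN#1. Only replicate 1 of sgJUN#1 stood apart, and the group means differed by -1.49 (exact two-sided permutation p = 0.2, adjusted over 5 ratios 0.5).

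The genes most like ESRP1 over the 5 libraries were SLC27A2 (root mean square difference 0.261), SDCBP2 (0.308) and AP1M2 (0.336), the last an adaptor subunit of polarised epithelial sorting. SDCBP2 was at 6.31, 8.52 and 7.73 CPM in the NTC libraries, against 57.2 and 11.4 CPM in sgJUN#1, again with replicate 1 far above replicate 2. Those most like CDH1 were LSR (0.104), P3H2 (0.128) and C1orf116 (0.148), of which LSR, a receptor of tricellular junctions, was at 9.60, 12.2 and 18.3 CPM in the NTC libraries, against 35.4 and 12.5 CPM in sgJUN#1. These lists rest on 5 points each, from the same libraries. Among 12 splicing regulators of the 2 states, all tested, 0 passed with edgeR or DESeq2, and the median log2 fold change was 0.063. The unadjusted edgeR p was under 0.05 for 1 of the 12, ESRP1 itself, against 8.38% of all tested genes. Apart from ESRP1 the list ran from 0.44 for RBM47 to -0.59 for MBNL2, and the ESRP1 paralogue ESRP2 was at -0.21 (SE 0.256, edgeR adjusted p 0.871).

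**Figure D3:**
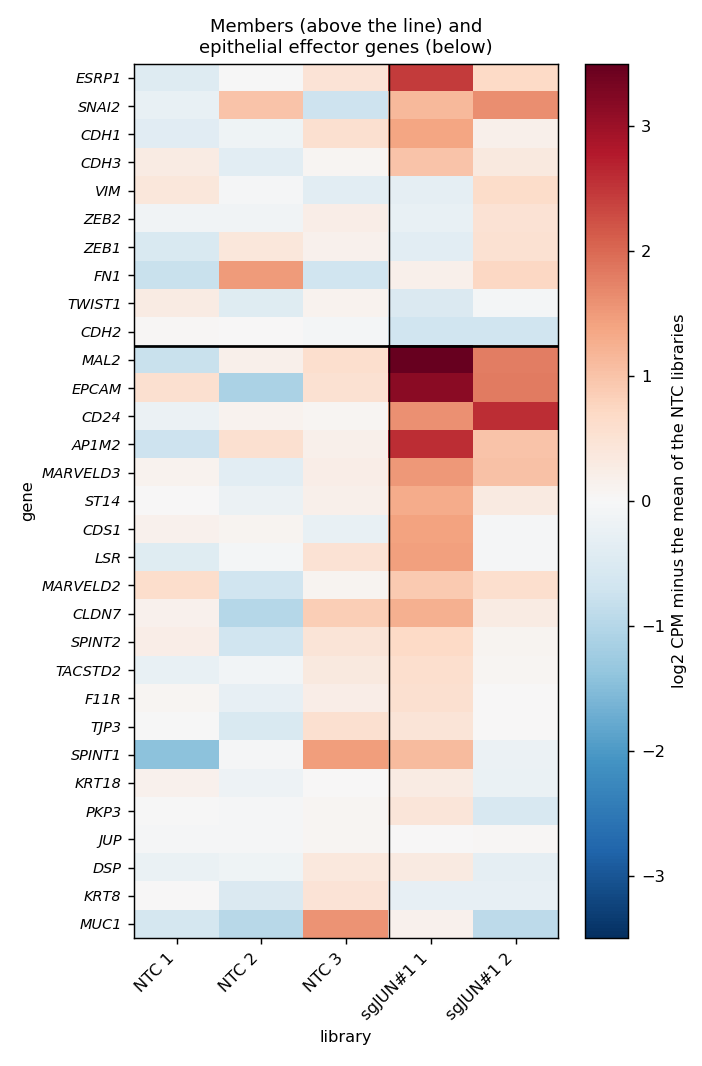
Log2 CPM minus the mean of the NTC libraries, as colour, for the 10 genes (above the line) and the 21 tested epithelial effector genes (below it) in the 5 libraries. In sgJUN#1 replicate 1 CDH1, CDH3, ESRP1 and most of the epithelial effector genes (median 0.93) are higher than in replicate 2 (median 0.036).

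The sgJUN#1 libraries differed from each other along this axis. CDH1, CDH3 and ESRP1 had their highest level of the 5 libraries in replicate 1, and VIM, ZEB1, ZEB2 and SNAI2 had theirs in replicate 2. Relative to the NTC mean, the median of the 10 genes was -0.038 on the log2 scale in replicate 1 and 0.52 in replicate 2. The same order was seen in the wider epithelial list, where 19 of 21 tested effector genes (90.5%) were higher in replicate 1 than in replicate 2, beside 49.1% of all tested genes. Their median against the NTC mean was 0.93 in replicate 1 and 0.036 in replicate 2, and the NTC libraries themselves ran from -0.17 to 0.36. The mesenchymal effector list had the other order, with 6 of 22 genes higher in replicate 1 and medians of -0.31 and 0.26. Of the 10 tested transcription factors, 1 was higher in replicate 1. SNAI1, with too few counts to test, went the other way, with 21 counts in replicate 1 and 2 in replicate 2. JUN itself was 171 CPM in replicate 1 and 264 CPM in replicate 2. With 1 library on each side there is no replicate check of this difference, and its source was not tested.

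Of 28 epithelial effector genes listed, covering adhesion, tight junction and polarity, 21 were tested, 19 had a positive and 2 a negative log2 fold change (6669 of 13616 positive over all tested genes), and the median was 0.34. This median rested on sgJUN#1 replicate 1, since it was 0.015 without that library and 0.93 without replicate 2. The latter fit was filtered anew and held 24 genes of the list. The groups did not overlap in 6 of the 21, all higher in sgJUN#1. Over all tested genes 25.0% had no overlap in either direction, and 12.2% had none with sgJUN#1 higher. The unadjusted edgeR p was under 0.05 for 7 of the 21, against 8.38% of all tested genes. DESeq2 called 3, CD24, MAL2 and LAD1, the last an anchoring filament protein with too few counts for the edgeR test (at most 1.10 CPM in NTC, against 17.3 and 2.49 CPM in sgJUN#1). One passed the edgeR threshold, CD24, a surface glycoprotein that is low on mesenchymal-like mammary cells. CD24 was at 51.8, 65.7 and 63.1 CPM in the NTC libraries, against 182 and 357 CPM in sgJUN#1. The groups were clearly apart, and the log2 fold change equalled 2.16 (SE 0.282, edgeR adjusted p 0.0202). Unlike in most of the list the higher value was in replicate 2. Another row of the table had counts within 4.90% of those of CD24 in every library, so these reads may be shared and the gene is uncertain. The call was also lost without NTC replicate 1 (log2 fold change 2.06, edgeR adjusted p 0.217) and without sgJUN#1 replicate 2 (1.61, 0.0529), while with DESeq2 it was 2.80e-09.

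The 2 highest values of that list did not pass. MAL2, a transcytosis protein of polarised cells, was at 10.7, 21.1 and 28.0 CPM in the NTC libraries, against 207 and 63.8 CPM in sgJUN#1 (log2 fold change 2.76, SE 0.544, edgeR adjusted p 0.182). EPCAM, the epithelial cell adhesion molecule, was at 23.6, 7.30 and 23.2 CPM in the NTC libraries, against 143 and 56.3 CPM in sgJUN#1 (log2 fold change 2.44, SE 0.514, edgeR adjusted p 0.210). In both genes each sgJUN#1 library lay above all NTC libraries, and replicate 1 was the highest, as for CDH1 and ESRP1. MAL2 passed with DESeq2 (adjusted p 0.0300) and without sgJUN#1 replicate 2 (edgeR adjusted p 0.00384), but not without sgJUN#1 replicate 1 (0.321). The lowest values in the list were -0.77 for MUC1 and -0.36 for KRT8. Of the epithelial identity factors, 9 of 15 were tested and 0 passed with edgeR or DESeq2. The unadjusted edgeR p was under 0.05 for 3 of the 9, against 8.38% of all tested genes. Their median log2 fold change was -0.11. It was 0.033, 0.22 and 0.066 without NTC replicate 3, sgJUN#1 replicate 1 and sgJUN#1 replicate 2. The fits without a sgJUN#1 library were filtered anew and held 11 and 12 of these factors, so their medians cover other genes as well. The values ran from 1.15 for OVOL2 to -1.25 for GATA3, with KLF5 next lowest at -0.38.

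Of 32 mesenchymal effector genes 22 were tested and 0 passed the edgeR threshold, with 7 at an unadjusted p under 0.05 (8.38% of all tested genes) and 2 called by DESeq2. The median log2 fold change was -0.19, and it turned to 0.086 without sgJUN#1 replicate 1 and to 0.032 without NTC replicate 3. These 2 fits were filtered anew and held 23 and 21 genes of the list. The groups did not overlap in 9 of the 22, 4 higher and 5 lower in sgJUN#1, beside 25.0% of all tested genes. FBN1 (fibrillin) had the highest value, at 14.0, 25.1 and 21.6 CPM in the NTC libraries, against 37.2 and 90.9 CPM in sgJUN#1 (log2 fold change 1.66, SE 0.385, edgeR adjusted p 0.213), followed by NT5E at 1.18. TPM1, an actin-binding tropomyosin, had the lowest, at 74.3, 85.6 and 96.2 CPM in the NTC libraries, against 41.3 and 36.3 CPM in sgJUN#1 (log2 fold change -1.13, SE 0.215, edgeR adjusted p 0.106), beside -1.13 for POSTN. FBN1 and TPM1 each had groups that did not overlap, and they were the 2 genes that passed with DESeq2. FBN1 also passed with edgeR without sgJUN#1 replicate 1.

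**Figure D4:**
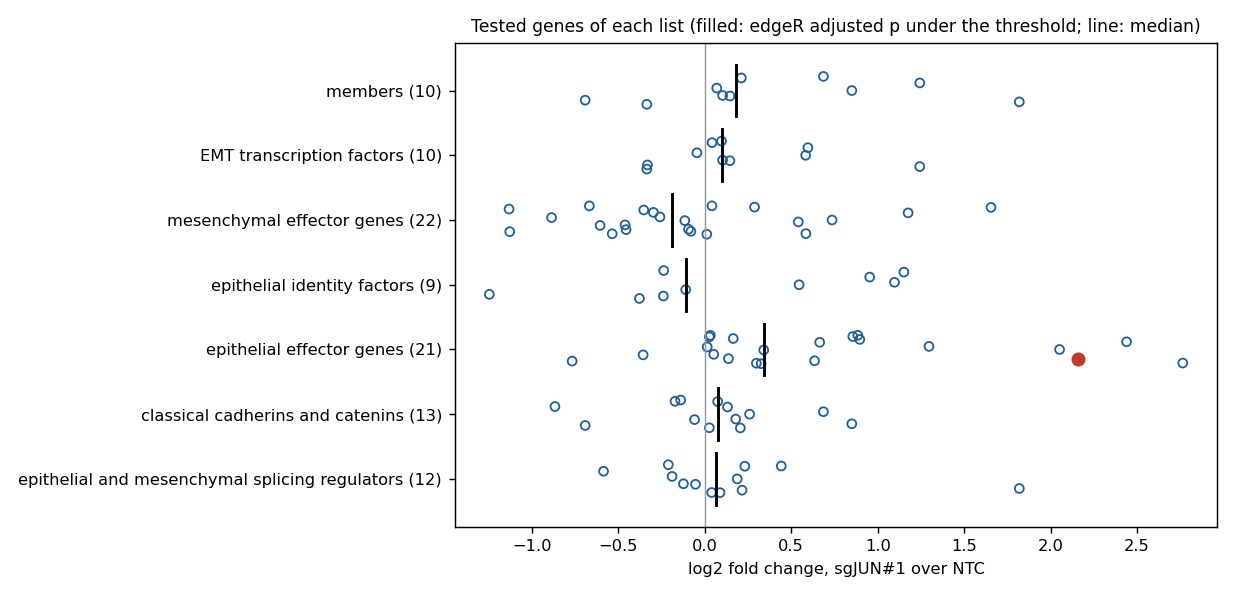
Log2 fold change of sgJUN#1 over NTC for every tested gene of each list (open points, filled where the edgeR adjusted p is under 0.05), with the median of the list as a line and the 10 genes in the first row. The epithelial effector genes lie mostly above 0 (median 0.34, 19 of 21 positive, but a median of 0.015 without sgJUN#1 replicate 1) and the mesenchymal effector genes on both sides of it (median -0.19).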

How the data were processed

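Libraries were made from total RNA with the QuantSeq 3′ mRNA-Seq kit (forward version), so a count depends little on transcript length. The authors deposited raw counts for each gene, made from reads aligned to hg19. The submitters' processing notes name cutadapt 4.2 and Bowtie2 2.3.5.1. The annotation, the handling of strand and multiple alignments and the use of molecular identifiers are not given in the sources used here, so depth limits cover counting error only. The table held 23459 Entrez identifiers, of which 23308 (99.36%) matched an NCBI symbol.

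Counts were tested with edgeR 4.0.16 (quasi-likelihood F test, R 4.3.3, TMM, filterByExpr, robust estimation, group as the only term), with Benjamini-Hochberg adjustment over 13616 genes and a threshold of 0.05; 9843 genes were filtered out. CPM used TMM-scaled library sizes, the SE was log2 fold change over the root of F, and 95% intervals used the t distribution. Ratios were taken on counts plus 0.5 and, like single values, tested by exact two-sided permutation over libraries. Whole-series depth was 3733499, 2455627 and 4393252 counts for NTC and 4988062 and 2766254 for sgJUN#1. Replicates differed by more than counting noise (chi-square per degree of freedom 7.62 to 18.4). On simulated data for this comparison (13344 genes), the fit recovered 25.5% of 98 2-fold and 84% of 100 4-fold changes, with 7 false calls among 116.

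Groups and replicate numbers came from the sample titles. The study names 2 biological replicates for its own enrichment analysis of this comparison, and the labels do not say whether replicates were separate cultures or infections, so p-values measure the spread between these libraries. The labels list 3 NTC libraries, and which of them the study left out, if any, is not known. The study's methods use DESeq2 (1.42.0 here), which was run as an alternative together with limma-voom (limma 3.58.1), other scalings, other filters, a replicate block and leaving out each library. The 10 genes and the lists were chosen with earlier results of these data known. Named were the 10 genes, JUN, each listed gene past the threshold, the 2 highest and 2 lowest log2 fold changes of each list, and the 3 genes most alike to each of the 3 largest differences; 1 gene that this rule names is not reported here. Other genes, among them the marker genes, are named as checks and were chosen after their values were seen. Positions are from GENCODE version 44 on GRCh37. Promoters are from RefSeq on GRCh38.p14.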

Additional observations from a re-analysis of the deposited data

How the results depend on the processing

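Over 13 alternatives the 10 genes gave 130 log2 fold changes, of which 120 kept their direction and their side of the threshold, 2 passed it and 8 turned. The number of the 10 genes called was 0 except without NTC replicate 2 (1, SNAI2, 1.90) and without sgJUN#1 replicate 2 (1, ESRP1, 2.41), so leaving out a library gave 0 to 1, and their median log2 fold change -0.25 to 0.42. FN1 turned to -0.29, -0.28 and -0.23 without NTC replicate 1, NTC replicate 3 and sgJUN#1 replicate 2, and reached 1.23 without NTC replicate 2. VIM turned to -0.011 with the replicate block and to -0.34 without sgJUN#1 replicate 2. ZEB1 turned to -0.13 without NTC replicate 1 and to -0.40 without sgJUN#1 replicate 2, where ZEB2 was -0.26, while without sgJUN#1 replicate 1 VIM was 0.61 and ZEB1 and ZEB2 were each 0.49. The cause was not tested.

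Over all genes 28 were called with edgeR, 136 with DESeq2, 148 with no filter, 18 where each library had to hold 10 or more counts, and 10 to 57 when a library was left out. JUN passed with DESeq2 (log2 fold change 3.24) and ranged from 2.84 to 3.68 without single libraries. Leaving out a library moved the log2 ratio differences from -0.24 to 0.38 (CDH1 to CDH3), from -0.47 to 1.69 (CDH1 to VIM) and from -1.21 to 0.56 (FN1 to CDH1), so these had no stable sign. The other ratio differences stayed negative, from -2.08 to -0.86 (CDH2 to CDH1) and from -2.80 to -0.17 (ZEB1 to ESRP1). The labels do not say whether libraries of the same replicate number were made together. The differences between replicates 1 and 2 in NTC and sgJUN#1 had a correlation of 0.021 over 13616 genes. With only 2 pairs this cannot decide whether the numbers mark a shared batch. Only NTC had a replicate 3, so with the replicate block the group difference rested on replicates 1 and 2. In that fit 103 genes were called, 26 of them among the 28, and none of the 10 genes was called. JUN was called at 2.82 (edgeR adjusted p 1.15e-04), and of the listed genes CD24, EPCAM and FBN1 passed. Counts were low for ESRP1 (11 to 124 per library) and TWIST1 (21 to 58), and the effect of depth on their values was not tested. With 3 against 2 libraries the smallest permutation p was 0.1.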
